A study of Mus musculus with 198 samples.

Results

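The BXD and BXH recombinant inbred (RI) mouse strains were split by the level of 1 array probe of Mpv17l, ILMN_2794258, and the strains with a high level were compared with those with a low level for all other probes in hippocampus and in striatum. The series holds 198 arrays of the Hybrid Mouse Diversity Panel, a collection of classical inbred strains and RI sets, and 81 of them entered the comparison: 41 hippocampus arrays and 40 striatum arrays. Expression was measured in whole hippocampus or whole striatum of male mice on Illumina MouseRef-8 v2.0 arrays with 25697 probes, with 1 array for each BXD and BXH strain in a tissue, apart from BXH2, which had no striatum array. The mice of the study were young adults that had gone through a fear conditioning test, with no drug or engineered allele. Each RI strain is an inbred mosaic of its parents, C57BL/6J (B6) and DBA for BXD, B6 and C3H for BXH, and AJ and B6 for AXB/BXA, so at any locus it carries the allele of 1 parent or the other. Strains rather than animals are the replicates here, each strain is a single library in a tissue, and strains of a set are relatives. The p-values below therefore measure the spread between strains, which includes variation of animal and array within a strain that cannot be separated. The mean level of the striatal neuron markers had a median of 9.11 on the high and 9.07 on the low side in hippocampus against 11.68 on both sides in striatum, over the probes tested in each tissue.

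Mpv17l encodes a small membrane protein of the Mpv17 family, which in the mouse has been placed in peroxisomes and mitochondria and linked to the metabolism of reactive oxygen species. Genes close to each other on a chromosome are usually inherited together in an RI strain. A difference in a gene near Mpv17l therefore sorts with the Mpv17l locus, whereas a gene on another chromosome is inherited independently of it apart from chance in a small set. For this reason probes on chromosome 16, where Mpv17l lies, were called linked and are reported apart from the unlinked probes of other chromosomes.

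The strains of each side were chosen by their own level of the probe, as the log2 of the authors' normalized intensity. The threshold was 9.10, halfway between the 5th percentile (7.72) and the 95th percentile (10.47) of the hippocampus values of 99 strains, where the 2 arrays of B6Cc3 were averaged. In BXD 13 strains were above it and 17 below, and in BXH 6 were above and 5 below. BXD24a and BXD24b, which share a strain number in the labels, were both below and counted as separate strains. All 28 AXB/BXA strains were above it, also without AXB19b, whose hippocampus array was to be left out, so that set has no low side and was not in the comparison. The BXD strains of the high side ranged from 10.02 to 10.37 in hippocampus with a median of 10.23, and those of the low side from 7.51 to 8.72 with a median of 8.07. The values of the BXH strains of the high side were 10.04, 10.06, 10.06, 10.19, 10.30 and 10.35, and those of the low side 7.62, 7.63, 7.69, 8.15 and 8.23. No strain lay near the threshold: the 2 strains just below it were BXD24a (8.72) and BXD34 (8.48), and the 2 just above it were BXD13 (10.02) and BXH7 (10.04). These values chose the strains and are given without a test.

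In striatum the same sides separated as widely. The high BXD strains ranged from 10.23 to 10.56 with a median of 10.37 and the low ones from 8.12 to 8.87 with a median of 8.42. The high BXH strains ranged from 10.22 to 10.47 and the low ones were at 8.23, 8.26, 8.30 and 8.62. Every strain with both arrays fell on the same side when the striatum values were split by the same rule, with a threshold of 9.47. The parents fell on opposite sides: in hippocampus B6 was at 10.18 and AJ at 10.27, DBA at 7.57 and C3H at 8.08, and in striatum B6 was at 10.33, AJ at 10.50, DBA at 8.22 and C3H at 8.71. The AXB/BXA parents are thus both high. Among the inbred strains of the panel, parents included, 6 were low, namely DBA, C3H, CBA, CAST, KK and RIII, with hippocampus levels from 7.57 to 8.13, and 23 were high.

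**Figure D1:**
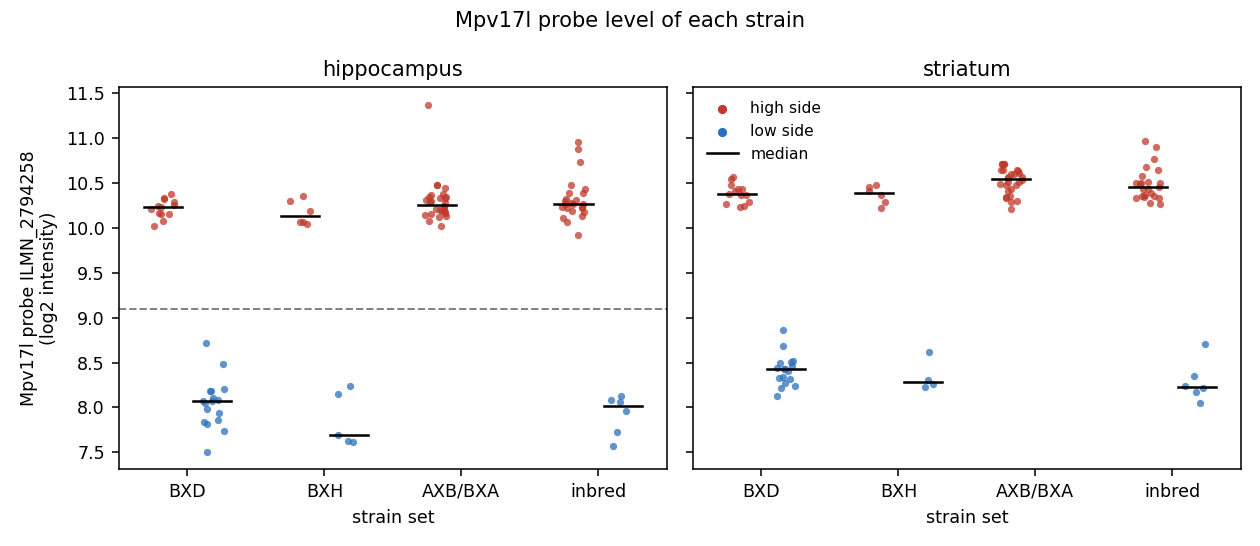
Level of the Mpv17l probe ILMN_2794258 (log2 intensity, y axis) in each strain by strain set (x axis) in hippocampus and striatum, where points are strains, red the high and blue the low side, black lines the median, B6Cc3 is drawn with the inbred strains, and the dashed line is the threshold of 9.10. The low BXD and BXH strains lie at 8.72 or below in hippocampus and the high ones at 10.02 or above, and no AXB/BXA strain is low.

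The probe was detected in 100% of the high arrays of both tissues, in 90.9% of the low hippocampus arrays and in 100% of the low striatum arrays, where detected means a detection p under 0.01 against the control probes of the array. The low level was therefore still above background in most strains.

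With the probe itself left out, 12269 probes were tested in hippocampus and 12328 in striatum, those detected in at least 20% of the arrays compared. The test was limma's moderated test of high against low with the RI set as a covariate, and a probe was called when its p, adjusted by Benjamini-Hochberg over all probes of the tissue, was under 0.05. In hippocampus 6 probes were called, 0.0489% of all tested, 3 of them higher and 3 lower in the high strains. In striatum 4 were called, 0.0324%, 1 higher and 3 lower. By linkage, 4 of 353 linked probes were called in hippocampus (1.13%) and 2 of 11215 unlinked ones (0.0178%). In striatum 4 of 351 linked probes (1.14%) and none of 11273 unlinked ones were called by limma, where 588 unlinked probes (5.22%) had an unadjusted p under 0.05 against 1375 (12.3%) in hippocampus. The 4 linked probes were the same in both tissues and belonged to 2 genes, Pdxdc1 with 3 probes and Mpv17l itself with 1. One of the Pdxdc1 probes, ILMN_1250922, was detected almost only on the low side and so passed the detection filter through that side. With detection required separately on each side, in 20% of its arrays or more, 11963 probes were tested in hippocampus and 12054 in striatum, and 3 linked probes were called in each tissue.

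Pdxdc1 encodes a protein with a pyridoxal-dependent decarboxylase domain and is the next gene to Mpv17l. In the RefSeq gene table of GRCm38.p6 the models of Pdxdc1 and Mpv17l overlap by 16 bases at their ends. The stretch that holds this overlap is shown because every linked call came from this pair of genes. It is given on the minus strand, that of Pdxdc1, chr16:13903154-13903183, with the shared bases in capitals.
Pdxdc1 and Mpv17l: gtgacgcCCAAGTACGGAAGCCTagaaggc
The 300-base RefSeq promoter window of Pdxdc1 that contains it holds 24 CG pairs, and 20% of 32851 such windows hold as many or more, where the median is 7.

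Pdxdc1 probes ILMN_3105205 and ILMN_2727980 differed between the sides in opposite directions. ILMN_3105205, which the array annotation assigns to one Pdxdc1 transcript, was higher in the high strains. In hippocampus it ranged from 9.19 to 9.67 in the high BXD strains (median 9.39) and from 8.12 to 8.52 in the low ones (median 8.31). The high BXH strains were at 9.05, 9.30, 9.32, 9.33, 9.36 and 9.62 and the low ones at 7.89, 8.04, 8.30, 8.31 and 8.33. The 2 sides did not overlap. The mean was 9.36 ± 0.15 (SD, n = 19) on the high side and 8.30 ± 0.15 (SD, n = 22) on the low side, a log2 difference of 1.07 (SE 0.05), or 2.11-fold (limma adjusted p = 4.18e-22). In striatum the high strains ranged from 9.24 to 9.72 and the low ones from 7.60 to 8.57, again without overlap, and the log2 difference was 1.18 (SE 0.05), or 2.27-fold (limma adjusted p = 5.07e-20).

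ILMN_2727980, which is annotated to another Pdxdc1 transcript, was lower in the high strains. In hippocampus the high BXD strains ranged from 7.66 to 8.11 (median 7.83) and the low ones from 8.58 to 9.01 (median 8.85). The high BXH strains were at 7.78, 7.82, 7.92, 7.96, 7.998 and 8.06 and the low ones at 8.58, 8.79, 8.79, 8.86 and 8.87. No high strain reached the lowest low strain. The mean was 7.86 ± 0.13 (SD, n = 19) on the high side and 8.81 ± 0.13 (SD, n = 22) on the low side, so the log2 level in the high strains fell by 0.95 (SE 0.04) relative to the low ones, a 1.93-fold difference (limma adjusted p = 1.39e-21). In striatum the 2 sides were also separate, from 7.67 to 8.02 and from 8.44 to 8.98, and the log2 difference was -0.83 (SE 0.04, limma adjusted p = 2.14e-19). After a background correction by normexp with quantile normalization the sizes were larger, -1.60 in hippocampus and -1.54 in striatum. In hippocampus the deposited signals equaled the authors' normalized values, so there the correction was made on values already normalized.

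The remaining Pdxdc1 probe, ILMN_1250922, has the same transcript annotation as ILMN_2727980 and lay close to background on the high side. It was detected in 5.26% of the high and 95.5% of the low hippocampus arrays, and in 10.5% of the high and 100% of the low striatum arrays. In hippocampus its values ranged from 7.33 to 7.77 in the high strains and from 7.62 to 8.002 in the low ones, with some overlap. In striatum they ranged from 7.39 to 7.63 and from 7.78 to 8.16, without overlap. Because the probe entered the test through the low side, where it is higher, it had to differ, so these values are a description and no difference or test is given for it.

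Groups that did not overlap over all strains compared were rare among the probes tested: 2 probes of 12269 in hippocampus (0.0163%) and 3 of 12328 in striatum (0.0243%). All of them were Pdxdc1 probes, and of the linked probes alone they made up 0.567% and 0.855%. In striatum 1 of the 3 was ILMN_1250922, and 2 remained with detection required on each side.

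A second probe of Mpv17l moved against the probe that set the sides. ILMN_1220761, detected in 100% of the arrays compared, ranged in hippocampus from 10.14 to 10.46 in the high BXD strains (median 10.25) and from 10.38 to 10.88 in the low ones (median 10.56). The high BXH strains were at 9.76, 10.11, 10.24, 10.26, 10.28 and 10.28 and the low ones at 10.41, 10.58, 10.70, 10.79 and 10.91. The sides overlapped slightly in BXD and not in BXH. How many of all probes tested were separate within BXH alone was not counted. The mean was 10.22 ± 0.14 (SD, n = 19) on the high side and 10.57 ± 0.15 (SD, n = 22) on the low side, a log2 difference of -0.35 (SE 0.05, limma adjusted p = 5.78e-06), so strains that were high by ILMN_2794258 were lower by ILMN_1220761. In striatum the means were 10.38 ± 0.12 (SD, n = 19) and 10.68 ± 0.12 (SD, n = 21), a log2 difference of -0.29 (SE 0.04, limma adjusted p = 1.12e-05). For this probe the BXH sides overlapped in striatum, with high strains up to 10.58 and low ones from 10.51. With BXH alone it was not called (-0.52 in hippocampus, adjusted p = 1.00, and -0.25 in striatum, adjusted p = 1.00).

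The third Mpv17l probe, ILMN_2760892, was dim and did not pass the test in either tissue. It ranged from 7.59 to 7.98 in the high and from 7.70 to 8.18 in the low hippocampus arrays. The log2 difference was -0.08 (95% interval -0.16 to -0.01, limma adjusted p = 0.38) in hippocampus and 0.02 (-0.03 to 0.08, limma adjusted p = 0.95) in striatum. The array annotation assigns all 3 Mpv17l probes to 1 transcript, so it does not separate the probe that is high, the one that is lower and the one that did not pass. Probe sequences were not used here: whether a sequence variant lies under a probe was not tested, and a change in binding and a change in transcript level cannot be told apart from these values.

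**Figure D2:**
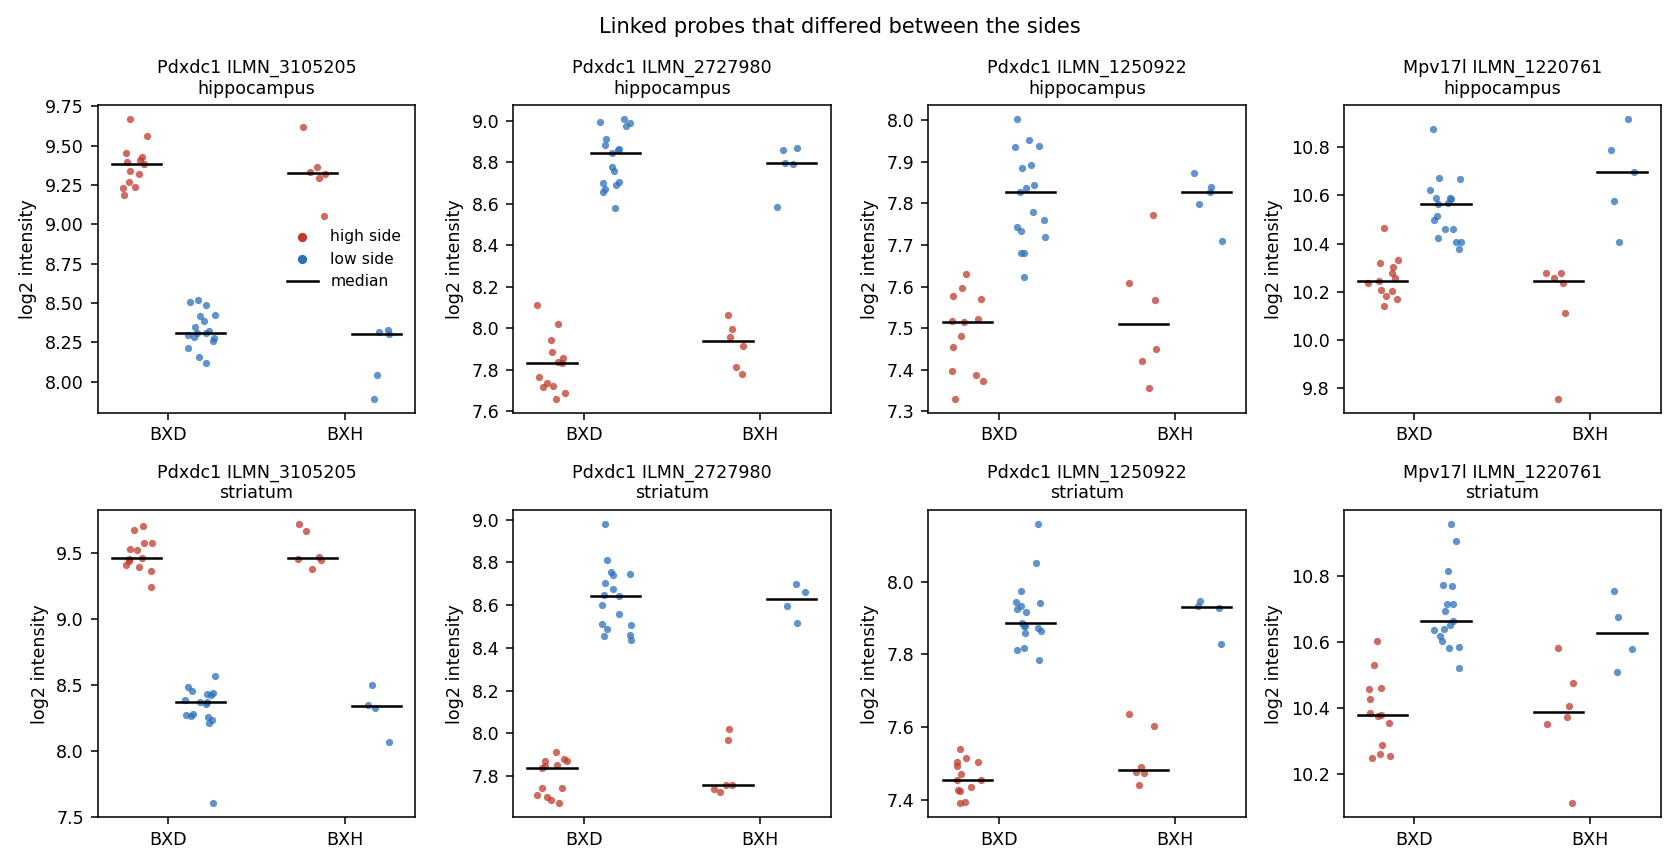
Log2 intensity (y axis) of the 4 linked probes that were called, by RI set (x axis) in hippocampus (top) and striatum (bottom), with a point for each strain, red for the high and blue for the low side, and black lines for the median. Pdxdc1 ILMN_3105205 is higher and ILMN_2727980 lower in every high strain than in any low strain, and Mpv17l ILMN_1220761 is lower on the high side with slight overlap.

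The differences of these probes had the same direction in the 2 RI sets. For Pdxdc1 ILMN_3105205 the high minus low difference was 1.04 in BXD and 1.16 in BXH in hippocampus, and 1.17 and 1.21 in striatum. For ILMN_2727980 it was -0.99 in BXD and -0.86 in BXH in hippocampus, and -0.84 and -0.79 in striatum. For Mpv17l ILMN_1220761 it was -0.29 in BXD and -0.52 in BXH in hippocampus, where the difference of the differences was -0.23 (SE 0.10, limma unadjusted p = 0.02, adjusted p = 1.00), and -0.31 and -0.25 in striatum. None of the tested Pdxdc1 and Mpv17l probes was called for a difference between the sets by limma.

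Nor did Pdxdc1 ILMN_3105205 and ILMN_2727980 or Mpv17l ILMN_1220761 pass that test between the tissues. Within strains, the hippocampus minus striatum change of the high minus low difference was -0.10 (SE 0.06) for Pdxdc1 ILMN_3105205, -0.12 (SE 0.05) for ILMN_2727980 and -0.05 (SE 0.06) for Mpv17l ILMN_1220761, each with a limma adjusted p of 0.99. Over 11759 probes tested in both tissues and 40 strains none was called by limma (0% of the probes), and 535 (4.55%) had an unadjusted p under 0.05, with a lowest adjusted p of 0.39.

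The parents, at 1 array each and thus without a test, had the direction of the Pdxdc1 differences in both tissues. For Pdxdc1 ILMN_3105205 B6 exceeded DBA by 1.33 and C3H by 1.997 in hippocampus, and by 1.26 and 1.20 in striatum. For ILMN_2727980 B6 minus DBA was -0.66 and B6 minus C3H -0.40 in hippocampus, and -0.99 and -0.94 in striatum. For ILMN_1250922, for which no difference between the sides is given, these were -0.35 and -0.28 in hippocampus and -0.63 and -0.58 in striatum. For Mpv17l ILMN_1220761 the parents were less alike: B6 minus DBA was -0.48 in hippocampus and 0.01 in striatum, and B6 minus C3H -0.02 and -0.23. As a background, the sign in the strains and the sign in the parents were the same for 51.8% of linked and 46.7% of unlinked probes in BXD hippocampus, and for 50.7% and 56.0% in BXH hippocampus. In striatum these shares were 49.0% and 45.1% in BXD, and 62.4% and 59.4% in BXH.

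Strains outside the comparison were set against the midpoint between the medians of the high and the low sides of BXD and BXH. The inbred strains counted here include the parents, DBA and C3H among the low and B6 and AJ among the high ones. For Pdxdc1 ILMN_3105205 in hippocampus this was 8.82, and 6 of 6 low inbred strains lay on the low side of it, 21 of 23 high inbred strains on the high side, and 26 of 27 AXB/BXA strains, AXB19b left out, on the high side. The strains that went against their side were BalbcJ (8.58), SEA (8.37) and AXB6 (8.55). In striatum, with a midpoint of 8.91, all 6 low inbred strains again lay on the low side and 19 of 22 high inbred strains on the high side, and the exceptions were BalbcJ (8.28), SM (8.15) and NZW (7.79), beside BXA2 (8.55) and BXA12 (8.25) among 28 AXB/BXA strains. BalbcJ was the strain that went against its side with all 3 Pdxdc1 probes in both tissues: for ILMN_2727980 it was at 8.73 in hippocampus and 8.59 in striatum, levels of the low side of BXD and BXH, and for ILMN_1250922 at 7.87 and 7.97. SEA went against its side with all 3 probes in hippocampus and had no striatum array, and NZW and SM did so with all 3 in striatum and with none in hippocampus. These exceptions were singled out after their values were seen. For Mpv17l ILMN_1220761 the low inbred strains did not sit above the high ones: they ranged from 9.35 to 10.77 in hippocampus (n = 6) and the high inbred strains with B6Cc3 from 10.02 to 10.50 (n = 24).

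No other linked gene was called. Along chromosome 16 the array holds 511 genes, 65 before Mpv17l and 445 after it. Of the 19 genes other than Pdxdc1 within 10 array genes to either side, 13 had a tested probe, 20 probes in all, and none was called by limma in either tissue. At an unadjusted p under 0.05 there were 4 of these 20 probes in hippocampus and 1 of 20 in striatum, beside 12.4% and 5.31% of all probes tested. Their log2 differences in hippocampus ran between -0.10 (Nde1) and 0.23 (Bmerb1), those in striatum between -0.07 (Nde1) and 0.19 (Bmerb1), and no 95% interval reached beyond -0.19 or 0.38 in hippocampus or beyond -0.16 or 0.40 in striatum.

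Ntan1, an amidase that acts on N-terminal asparagine and lies on the far side of Pdxdc1, was at 11.41 on the high and 11.40 on the low side in hippocampus, a difference of 0.01 (95% interval -0.08 to 0.09), and the difference in striatum was 0.03 (-0.08 to 0.14). Bmerb1, the next array gene on the other side of Mpv17l, had values of 0.23 (0.08 to 0.38, limma adjusted p = 0.27) and 0.07 (-0.03 to 0.16) for its 2 tested probes in hippocampus and 0.19 (-0.01 to 0.40) and 0.17 (0.04 to 0.29) in striatum, the last with a limma adjusted p of 0.90. Nde1, which acts in mitosis and the migration of neurons, had differences from -0.10 to -0.03 for its 3 probes in hippocampus. The values of Zc3h7a, Rsl1d1, Gspt1, Cpped1, Ercc4, Mcm4, Prkdc and Mzt2 lay between -0.09 (Zc3h7a) and 0.09 (Gspt1) in both tissues. Bfar, an apoptosis regulator, was at 0.08 and 0.13 in hippocampus and 0.07 and 0.16 in striatum, and Efcab1 at 0.15 and 0.08, and neither passed the test.

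Farther along the chromosome the differences were of like size. The median size of the difference, without Pdxdc1, was 0.05 at 1 to 10 array genes from Mpv17l, 0.04 at 11 to 50, 0.04 at 51 to 100 and 0.05 beyond 100 in hippocampus, and 0.04, 0.04, 0.03 and 0.04 in striatum. Over all linked probes the median signed difference was -0.01 in hippocampus and 0.01 in striatum, beside -0.003 and 0.001 for the unlinked probes. The lowest adjusted p of a linked probe that was not called was 0.23 in hippocampus, for Jam2, a junctional adhesion molecule (-0.16, SE 0.04, 347 array genes away), and 0.90 in striatum. With linked restricted to 100 array genes around Mpv17l the counts of linked and unlinked calls were the same.

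**Figure D3:**
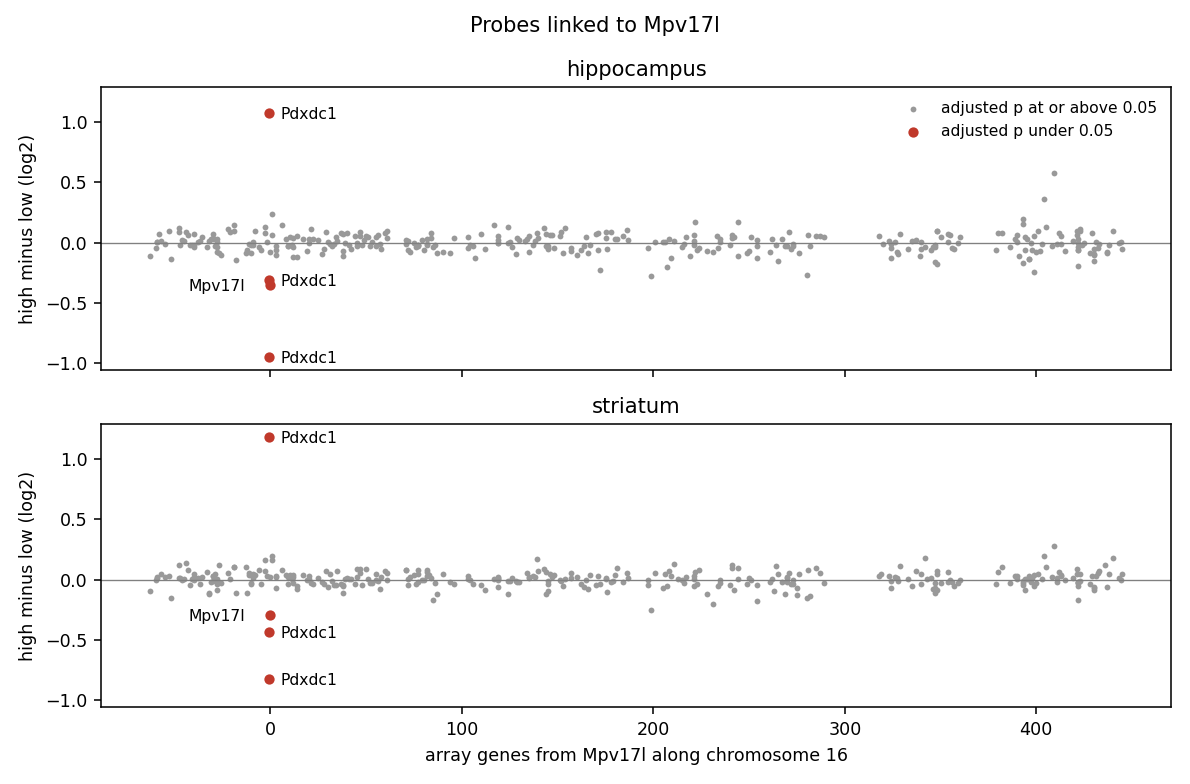
High minus low difference (log2, y axis) of each tested chromosome 16 probe against its distance from Mpv17l in array genes (x axis), in hippocampus (top) and striatum (bottom), with called probes in red and the others in grey. The called probes all lie at Mpv17l or at its neighbour Pdxdc1, and the grey points stay between -0.3 and 0.6.

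Of the unlinked probes, 2 were called, both in hippocampus and both higher in the high strains. Tmem98 encodes a transmembrane protein that in the mouse binds the oligodendrocyte transcription factor Myrf, and lies on chromosome 11. Its probe ILMN_2658815 ranged from 8.12 to 8.72 in the high BXD strains (median 8.49) and from 7.81 to 8.45 in the low ones (median 8.26). In BXH the high strains were at 8.18, 8.25, 8.47, 8.56, 8.65 and 8.71 and the low ones at 7.95, 7.99, 8.05, 8.14 and 8.35. The sides overlapped in both sets. The mean was 8.47 ± 0.19 (SD, n = 19) against 8.19 ± 0.17 (SD, n = 22), a log2 difference of 0.29 (SE 0.06, limma adjusted p = 0.01). In striatum the difference was 0.18 (SE 0.06, limma adjusted p = 0.90). The other Tmem98 probe, ILMN_2827646, was at 0.08 (SE 0.06, adjusted p = 0.65) in hippocampus and 0.20 (SE 0.08, adjusted p = 0.90) in striatum. In hippocampus the parents went the other way for ILMN_2658815, with B6 minus DBA at -0.08 and B6 minus C3H at -0.36.

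Marcksl1 encodes a MARCKS-like protein that binds actin and calmodulin, and lies on chromosome 4. Its probe ILMN_2617162 ranged from 8.22 to 8.74 in the high BXD strains (median 8.41) and from 8.02 to 8.46 in the low ones (median 8.10). In BXH the high strains were at 8.28, 8.35, 8.36, 8.40, 8.55 and 8.61 and the low ones at 8.02, 8.07, 8.30, 8.34 and 8.47. The sides overlapped in both sets. The mean was 8.43 ± 0.12 (SD, n = 19) against 8.20 ± 0.16 (SD, n = 22), a log2 difference of 0.23 (SE 0.05, limma adjusted p = 0.02). The call was lost when any 1 of BXD12, BXD28, BXH4 or BXH19 was left out, with limma adjusted p of 0.05 to 0.06. In striatum the difference was -0.01 (SE 0.04, limma adjusted p = 0.99), and the change between the tissues, 0.25 (SE 0.06), had a limma unadjusted p of 3.18e-04 and an adjusted p of 0.99. Other Marcksl1 probes in hippocampus were at 0.13 (ILMN_2701891, SE 0.04, adjusted p = 0.27), 0.16 (ILMN_1215632, SE 0.06, adjusted p = 0.32) and -0.03 (ILMN_1250438, SE 0.08, adjusted p = 0.89). B6 exceeded DBA by 0.12 and C3H by 0.57 in hippocampus. Neither Tmem98 nor Marcksl1 was called within BXD alone (limma adjusted p = 0.23 and 0.11) or within BXH alone (adjusted p = 1.00 for both).

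None of the markers of the choroid plexus, the tissue in the ventricles next to the hippocampus that makes cerebrospinal fluid, was called in hippocampus by limma (lowest adjusted p 0.24). The differences of the 11 tested probes of 8 of the 10 marker genes were all above 0, beside 48.4% of all probes tested, with a median of 0.38 beside -0.003. At a limma unadjusted p under 0.05 there were 10 of the 11, beside 12.4% of all probes. Sostdc1 was at 0.56 (SE 0.18), Aqp1 at 0.23 to 0.55, Kl at 0.44 (SE 0.13), Otx2 at 0.34 (SE 0.11) and Clic6, a gene of chromosome 16 that is 409 array genes from Mpv17l, at 0.57 (SE 0.22). The mean level of the list ranged from 8.05 to 9.68 on the high side and from 8.02 to 9.53 on the low side. These ranges overlapped almost wholly, while the median was 9.20 on the high and 8.71 on the low side. In striatum 11 of 11 choroid plexus probes were again above 0, with a median of 0.23, the highest of the lists there. None of them had an unadjusted p under 0.05 in striatum. Endothelial markers were at a median of 0.07 in hippocampus, with Ly6c1 at 0.31 (SE 0.08, adjusted p = 0.19), and oligodendrocyte markers at 0.09 in hippocampus and 0.19 in striatum, with 14 of 14 probes above 0 in striatum, beside 50.5% of all probes tested there, and none called. In bulk tissue more cells of a type and more RNA per cell cannot be told apart. The part of these cell types in the Tmem98 and Marcksl1 values was not tested. Markers of microglia, astrocytes, striatal neurons and hippocampal neurons had medians between -0.08 and 0.01 in hippocampus, and between -0.03 and 0.12 in striatum, and none of their probes was called by limma. In striatum 11 of 11 striatal neuron probes (median 0.12) and 6 of 6 endothelial probes (median 0.10) were also above 0. There 6 of 10 astrocyte, 3 of 10 microglia and 2 of 6 hippocampal neuron probes were above 0.

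Where the 2 RI sets were compared for their high minus low difference, 1 of 12269 probes was called in hippocampus (0.00815%) and none of 12328 in striatum, with 260 (2.12%) and 335 (2.72%) at a limma unadjusted p under 0.05. The probe was ILMN_2679063 of Dctn2, dynamitin, a subunit of the dynactin complex that works with the motor dynein, on chromosome 10. In BXD hippocampus the high strains ranged from 13.16 to 13.43 (median 13.27) and the low ones from 12.997 to 13.49 (median 13.25). In BXH the high strains were at 12.58, 12.76, 12.83, 12.90, 12.97 and 13.06 and the low ones at 13.07, 13.24, 13.28, 13.36 and 13.54. The BXD sides thus covered the same range, while the BXH sides were separate by a narrow gap, from BXH8 (13.059) to BXH6 (13.067). How many of all probes tested were separate within BXH alone was not counted. The difference was 0.04 in BXD and -0.45 in BXH, and BXH minus BXD was -0.49 (SE 0.09, limma adjusted p = 0.03). Over both sets the probe was not called (-0.09, SE 0.05, adjusted p = 0.45). The BXH sides overlapped in striatum, from 12.51 to 13.02 on the high and from 12.88 to 13.21 on the low side. In striatum BXH minus BXD was -0.26 (SE 0.11, unadjusted p = 0.03, adjusted p = 1.00), and the BXH parents lay the other way, with B6 above C3H by 0.24 in hippocampus and 0.41 in striatum. The call was lost without any 1 of BXD9, BXD40, BXH2, BXH4, BXH7, BXH9, BXH19 or BXH22. Dctn2 probes ILMN_2707623 and ILMN_2859659 were not called for a difference between the sets. Their BXH minus BXD values were -0.11 (SE 0.13) and -0.17 (SE 0.10) in hippocampus, and 0.07 (SE 0.11) and -0.05 (SE 0.11) in striatum.

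**Figure D4:**
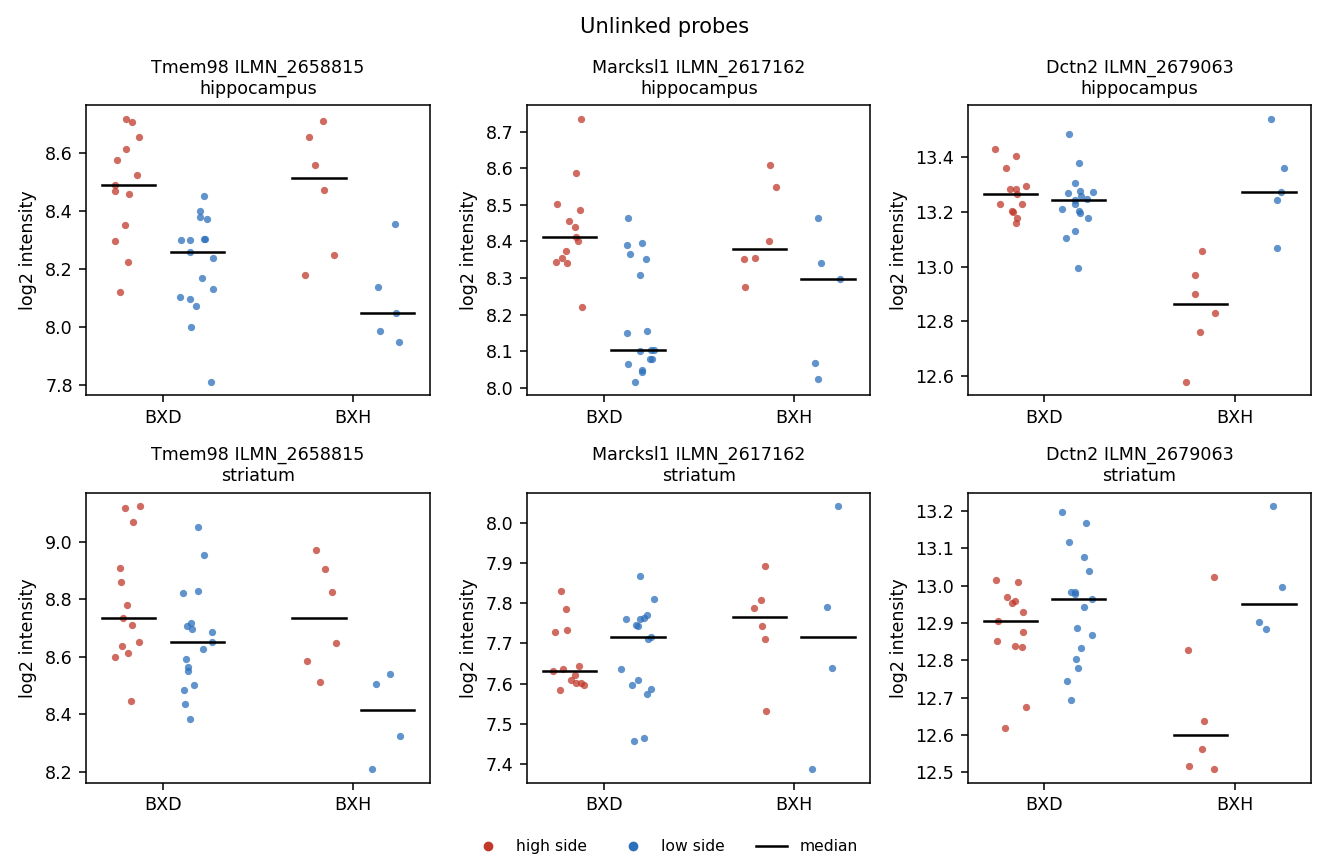
Log2 intensity (y axis) of 3 unlinked probes, Tmem98 and Marcksl1, called for high against low in hippocampus, and Dctn2, called there only for the difference between the sets, by RI set (x axis) in hippocampus (top) and striatum (bottom), with a point for each strain, red for the high and blue for the low side, and black lines for the median. Tmem98 and Marcksl1 are higher on the high side with overlap in hippocampus, and Dctn2 differs between the sides in BXH but not visibly in BXD.

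The relatives of Mpv17l were not called. The family on the array is Mpv17, an inner mitochondrial membrane protein whose loss depletes mitochondrial DNA, Mpv17l2, a mitochondrial protein, and Pxmp2, a channel protein of the peroxisomal membrane. Mpv17, on chromosome 5, had 4 probes: 3 of them were at 0.16 (ILMN_2626383), 0.17 (ILMN_2657857) and 0.18 (ILMN_3003242) in hippocampus, with limma unadjusted p of 0.002 to 0.007 and adjusted p of 0.27 to 0.30, and ILMN_1242903, the brightest, was at -0.01. In striatum the 4 were at -0.004 to 0.08. Mpv17l2 was at 0.06 (SE 0.05) in hippocampus and 0.09 (SE 0.04, adjusted p = 0.90) in striatum, and Pxmp2 at 0.04 (SE 0.04) and 0.08 (SE 0.05).

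Peroxisome genes, the biogenesis factors and enzymes of that organelle, were not called either. Of 46 genes 32 were tested in hippocampus with 47 probes and 34 in striatum with 50 probes, the median difference was 0.02 and 0.01, and 6 of 47 and 1 of 50 probes had a limma unadjusted p under 0.05, beside 12.4% and 5.31% of all probes tested. Among the import receptors and assembly factors in hippocampus, Pex7 was at 0.16 and 0.11 for its 2 probes (adjusted p = 0.29 and 0.44), Pex3 at 0.10 and 0.09, and Pex13 at -0.09. Pex5 was at 0.09, -0.04 and -0.05 for its 3 probes. Antioxidant genes were tested with 45 probes of 29 of 37 genes in hippocampus. Their median difference was 0.05 in hippocampus and 0.03 in striatum, 35 of 45 and 32 of 44 probes were above 0, beside 48.4% and 50.5% of all probes tested, and 11 of 45 and 0 of 44 had a limma unadjusted p under 0.05, beside 12.4% and 5.31%. Gpx8, a glutathione peroxidase of the endoplasmic reticulum, was at 0.29, 0.25 and 0.25 for its 3 probes in hippocampus with adjusted p of 0.27 to 0.32, Gpx4 at 0.13 and 0.02 for its 2 probes, and Gclc, the catalytic subunit that makes the glutathione precursor, at -0.14 (SE 0.05). Of the 3 probes of Prdx2, a peroxiredoxin, 2 had wide errors, 0.51 (SE 0.29) and 0.42 (SE 0.26) in hippocampus and 0.49 (SE 0.27) and 0.43 (SE 0.21) in striatum, and the brightest, ILMN_2773554, was at 0.01 and 0.03. Genes that maintain mitochondrial DNA had a median of 0.01 in both tissues over 16 probes of 13 of 16 genes. Polg, the mitochondrial DNA polymerase, was at -0.16 (SE 0.07, adjusted p = 0.38) and Tfam, which packages the mitochondrial genome, at 0.09 (SE 0.05, adjusted p = 0.41) and 0.02 for its 2 probes in hippocampus.

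**Figure D5:**
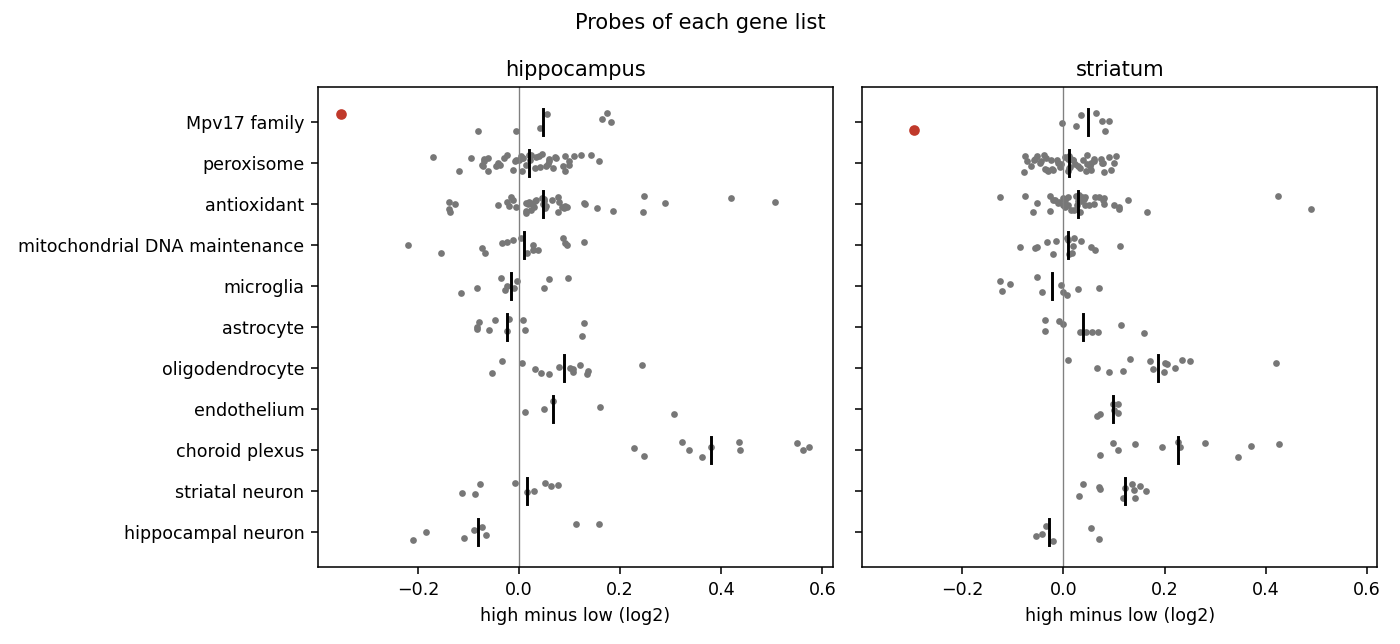
High minus low difference (log2, x axis) of each tested probe of the gene lists (y axis) in hippocampus and striatum, with grey points for probes that were not called, red points for called ones and black lines for the list median. The single called probe is Mpv17l ILMN_1220761, and the choroid plexus list has the highest median in both tissues, at 0.38 in hippocampus and 0.23 in striatum.

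The probes whose level followed the splitting probe most closely over strains, as a description, were those of Pdxdc1 and Mpv17l. The splitting probe had set the sides of the same strains, and its levels lay far apart between the sides. Pearson's r therefore largely restates the high against low difference and is not separate evidence for it. Pdxdc1 ILMN_1250922, which entered the test through the low side, is left out of these values. In hippocampus (41 strains) Pearson's r was 0.95 for Pdxdc1 ILMN_3105205, -0.94 for ILMN_2727980 and -0.78 for Mpv17l ILMN_1220761, and the next was Marcksl1 ILMN_2617162 at 0.60. In striatum (40 strains) the same probes were at 0.93, -0.94 and -0.76, and the next was Fbxo16 ILMN_2598074, an F-box protein gene of chromosome 14, at 0.56. Spearman's rho, in the same order, was 0.76, -0.71 and -0.72 in hippocampus and 0.69, -0.72 and -0.59 in striatum. The points share the arrays on which both probes were read.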

How the data were processed

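RNA of each strain and tissue, 1 array each and 2 averaged arrays for B6Cc3, was hybridized to Illumina MouseRef-8 v2.0 arrays, and the authors read and rank invariant normalized the signal in BeadStudio (version not given in the sources used here). The deposited values are linear signal intensities, and the authors' tissue tables give, for each probe, signal intensities with detection p-values. Within 0.1%, the hippocampus table equaled the normalized values for 100% of entries and the striatum table for 0.74%. Intensities were floored at 16, which changed 8 values, all of AXB19b, and log2 transformed. Probes had a detection p under 0.01 in at least 20% of the arrays compared. Fits used limma 3.58.1 in R 4.3.3, with the RI set as covariate and the differences between sets and tissues as interaction or within-strain differences. In simulated data with independent noise and known differences in some probes, the fit recovered 84.0% of differences of 0.25 and 97.3% of 0.5 among 12269 hippocampus probes. Among 12328 striatum probes it recovered 70.7% and 97.3%. There were 8 false calls of unchanged probes in hippocampus and 4 in striatum. The p needed for a call depends on how many probes differ, and fewer were called in the real data. These shares are therefore not the power of the comparisons above. Gene names and order came from the array annotation and RefSeq (GRCm38.p6, not the study's build); 23978 probes had 1 symbol and 1719 none, and 701 (hippocampus) and 704 (striatum) tested probes had no place and were in neither class. Named probes were those of the Mpv17 family, of genes within 10 array genes, the called probes, and of each list the called or lowest-p members. The members and lists were chosen with earlier results of these data known. No chip or date is given in the tables, so batches were not tested. The median rank correlation of an array with the others of its tissue was 0.931 to 0.955 and the share of probes detected 40.4% to 49.5% over the arrays compared. The median share detected was 43.3% on the high and 44.7% on the low side in hippocampus, and 44.5% and 44.3% in striatum. The number of arrays limits the precision: the median 95% interval half-width was 0.10 in hippocampus and 0.11 in striatum on the log2 scale. Relatedness among strains was not modeled.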

Additional observations from a re-analysis of the deposited data

Results flagged for a closer look

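Within the BXH sides, which hold 4 to 6 strains, 36 groups were examined for a strain far from the others, and about 1 in 20 such groups is set apart by chance. BXH7 stood apart among the 6 high strains for Mpv17l ILMN_1220761 in hippocampus, at 9.76 with the next strain at 10.11. BXH4 stood apart among the 5 low strains for Pdxdc1 ILMN_2727980 in hippocampus, at 8.58 with the next at 8.79. BXH2 stood apart among the 5 low strains for Mpv17l ILMN_2760892 in hippocampus, at 8.04 with the next at 7.86. BXH6 stood apart among the 4 low strains for Pdxdc1 ILMN_1250922 in striatum, at 7.83 with the next at 7.93. Dctn2 ILMN_2679063 differed between the RI sets in hippocampus, where the high minus low difference of BXH minus that of BXD was -0.49 by the interaction test.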

How the results depend on the processing

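The 4 linked calls of each tissue remained at 4 in every fit that left out 1 strain and under the other alternatives tried, except with BXH alone, where 2 were called in hippocampus and 2 in striatum, and with detection required separately on each side in 20% of its arrays or more, chosen after seeing the data, where 3 were called in each tissue. The 2 unlinked hippocampus calls became 0 with BXD alone and 0 with BXH alone, where fewer strains were fitted, and ranged from 1 to 3 when 1 strain was left out, with 1 without BXD12, BXD28, BXH4 or BXH19 and 3 without BXD6, BXD31 or BXH6. No unlinked striatum probe and no tissue difference was called under any alternative run. The set difference in hippocampus was 1 probe under the other alternatives and 0 to 3 without 1 strain: 0 without BXD9, BXD40, BXH2, BXH4, BXH9 or BXH19, 2 without BXH6 and 3 without BXH20. In striatum it was 0 and ranged from 0 to 2, with 1 without BXH7, BXH20 or BXH22 and 2 without BXH6. Within BXD or BXH alone the calls of Tmem98 (0.26 and 0.38) and Marcksl1 (0.25 and 0.18) in hippocampus were lost, within BXH alone those of Pdxdc1 ILMN_1250922 and Mpv17l ILMN_1220761, and no called value changed sign. For probes called in neither fit the sign was not compared. No paired analysis was possible because the sides hold different strains and share no replicate number. The alternatives on BeadChip, on AXB19b and on doubtful AXB/BXA labels were not run, since the headers name no chip and that set was not in the fit. Splitting at the largest gap or by the striatum level moved 0 strains. Dim probes such as Pdxdc1 ILMN_1250922 are limited by signal over background.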
